A study of Homo sapiens with 12 samples.

Results

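AMBN, AMTN and ENAM are 3 enamel matrix genes that lie side by side on the long arm of chromosome 4, in band 4q13. They were examined in HAP1, a near-haploid human line derived from a chronic myelogenous leukemia, and in its SETDB1 knockout (KO) derivative. AMBN was taken up because of its high level in wild-type (WT) cells and its lower level in the KO in the non-directional libraries, and AMTN and ENAM because they flank it. The members were thus 3 of the 58735 genes in the count tables, and their values in the non-directional libraries are given as a description without a test. Only AMBN of the 3 passed the filter on low counts.

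The study sequenced RNA from WT and SETDB1 KO cells with 2 library kits, of which the directional one preserves which DNA strand a transcript came from and the non-directional one loses it. This gave 4 groups of 3 libraries. The genotypes were WT and SETDB1 KO, with no drug treatment or time course in the labels, and all cells were grown in IMDM with fetal bovine serum and penicillin/streptomycin. SETDB1 is a histone methyltransferase that places the repressive mark H3K9me3. The labels do not say how many KO clones were used, nor whether both kits were run on the same RNA.

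Enamel is laid down by ameloblasts, epithelial cells of the developing tooth, which secrete a protein matrix that is mineralised and then largely degraded. Ameloblastin (AMBN) and enamelin (ENAM) are secreted together with amelogenin (AMELX) while the enamel layer is being built, and amelotin (AMTN) is made later, at the surface of maturing enamel. The 3 genes belong to the secretory calcium-binding phosphoproteins, a family that arose by gene duplication and also holds milk caseins and salivary proteins. Mutations in each of them are known causes of amelogenesis imperfecta, an inherited enamel defect.

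All 3 genes are read from the plus strand. AMTN (ENSG00000187689) lies at chr4:70518540-70532742 on GRCh38 and has 9 exon blocks with 1037 bp of merged exons. AMBN (ENSG00000178522) lies at chr4:70592256-70607288, with 14 exon blocks and 2009 bp of exons, and no other annotated gene overlaps it. ENAM (ENSG00000132464) lies at chr4:70628744-70686816, with 14 exon blocks and 6522 bp of exons, and overlaps JCHAIN on the opposite strand. The gaps were 59.5 kb between AMTN and AMBN and 21.5 kb between AMBN and ENAM.

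The DNA just before each start is shown because an expressed gene stands here between a pair of silent relatives. The sequences are the plus strand, 5′ to 3′, from RefSeq on GRCh38.p14, at chr4:70518319-70518539 for AMTN, chr4:70592006-70592255 for AMBN and chr4:70628494-70628743 for ENAM. AMTN is shown up to its earlier GENCODE start, which leaves 221 bases. ENAM has 2 RefSeq starts, of which the first was used. Capitals mark TAATTG, a core bound by homeobox factors of the MSX and DLX type, on either strand.
AMTN: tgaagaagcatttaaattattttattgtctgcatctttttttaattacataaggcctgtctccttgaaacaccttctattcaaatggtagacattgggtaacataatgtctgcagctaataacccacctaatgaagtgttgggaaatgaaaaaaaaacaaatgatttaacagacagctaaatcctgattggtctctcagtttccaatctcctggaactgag
AMBN: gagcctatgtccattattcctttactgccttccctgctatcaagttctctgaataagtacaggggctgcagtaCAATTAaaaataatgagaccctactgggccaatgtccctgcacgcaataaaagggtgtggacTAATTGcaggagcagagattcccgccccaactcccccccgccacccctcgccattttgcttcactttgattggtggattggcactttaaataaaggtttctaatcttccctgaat
ENAM: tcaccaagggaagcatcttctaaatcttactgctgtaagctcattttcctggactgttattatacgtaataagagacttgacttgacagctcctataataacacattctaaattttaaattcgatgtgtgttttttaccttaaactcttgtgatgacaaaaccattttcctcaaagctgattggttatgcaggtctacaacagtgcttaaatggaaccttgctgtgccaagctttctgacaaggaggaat
The AMBN window held TAATTG at 115 bases and its reverse CAATTA at 177 bases before the start, and the other windows held neither of these exact sequences. The same motif was found in 6.70% of 35095 RefSeq promoters searched over 250 bases. Neither TATAAA, a form of the TATA box (10.7% of promoters), nor TGTGGT, the RUNX core (11.0%), was found in any of the 3 windows on either strand, and no motif overlapped another. Only these exact letters were searched, so variant forms, such as TAATTA in the AMTN window, were not counted. AMBN held 4 CG dinucleotides, ENAM 2 and AMTN 0, against a median of 11 over all promoters. These matches describe letters only.

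Gene counts ranged from 8921959 to 10199215 per non-directional library and from 532021 to 676691 per directional library, in which only 5.23% to 5.30% of listed reads fell in genes, against 80.3% to 80.4% in the other kit. Counts of SETDB1 were 651, 543 and 519 in WT and 118, 106 and 118 in KO in the non-directional libraries (log2 fold change −2.39, SE 0.079, edgeR adjusted p = 7.02e-43). In the directional libraries SETDB1 had 36 counts over WT and 21 over KO and did not pass the threshold (log2 fold change −0.71, SE 0.41, edgeR adjusted p = 0.256). The 3 KO non-directional libraries differed from one another by no more than sampling noise (chi-square per degree of freedom 0.956 to 0.991), whereas WT replicate 2 differed from the other two WT libraries (1.82 and 2.00). The labels call all of them biological replicates and they were counted as 3, but p-values measure only the spread between these libraries, which may be technical.

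AMBN was among the most abundant protein-coding messages of WT HAP1 cells and was present at a lower level in the KO. The WT libraries held 6641, 5624 and 6164 AMBN counts, which is 651, 630 and 656 counts per 1000000 gene counts (CPM). The KO libraries held 2780, 2876 and 2937 counts, or 284, 293 and 289 CPM. The genotypes did not overlap in these values, on which AMBN was chosen. The share of all genes without overlap was not counted, and 25.9% of all genes tested were called lower. The mean was 645.8 ± 13.6 CPM in WT and 289.0 ± 4.49 CPM in KO (SD, n = 3 each), so that the KO stood at 44.7% of WT. The fitted log2 fold change was −1.17 (SE 0.028), a 2.25-fold lower level, and it is untested because AMBN was chosen on it. Of the 13778 genes tested, 3.42% had a log2 fold change as low. In bulk RNA, fewer cells that express a gene cannot be told apart from less RNA in each cell.

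**Figure D1:**
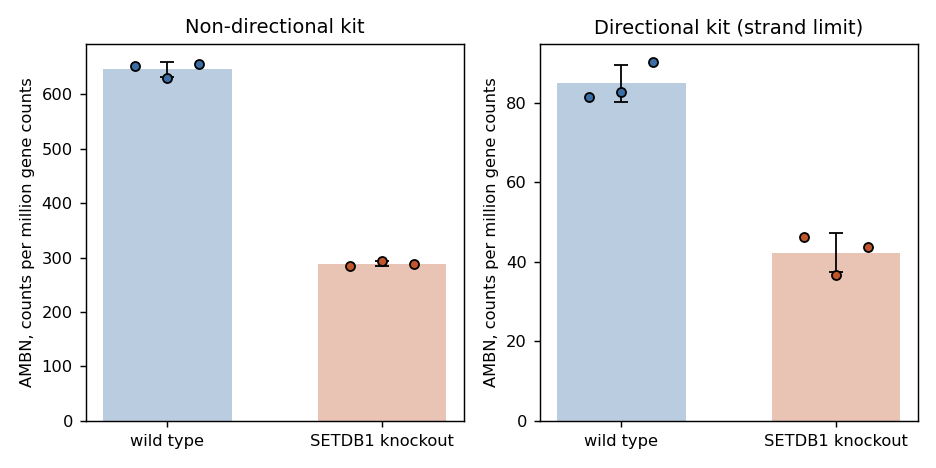
CPM of AMBN in each library, by genotype, for the non-directional and the directional kit. Points are libraries and bars the mean ± SD of 3. The WT libraries lie at 630 to 656 CPM and the KO libraries at 284 to 293 CPM in the non-directional kit.

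Set against gene length, AMBN reached 321 ± 6.78 RPKM (counts per kilobase of exon per 1000000 gene counts, SD, n = 3) in WT. This placed it at rank 63 of 19951 protein-coding genes. In KO it was at 144 ± 2.24 RPKM and at rank 235, so it was still a highly expressed gene. AMBN took up 0.0646% of all gene counts in WT and 0.0289% in KO.

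AMTN and ENAM had 0 counts in each of the 12 libraries. With 3 counts per library taken as the limit that a count of 0 allows, either gene could have been present at up to 0.294 to 0.336 CPM in the non-directional libraries (counting error only). Per kilobase of exon, AMBN was at least 968-fold higher than AMTN in WT and at least 478-fold higher in KO. Against ENAM the corresponding limits were at least 6086-fold and 3008-fold. A count of 0 in all 12 libraries was shared by 17.7% of the 19951 protein-coding genes. No fold change between genotypes can be given for AMTN or ENAM, and a change below the limit would not have been detectable at this depth.

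The silence extended to the other members of the gene family listed in 4q13. Of 16 secretory calcium-binding phosphoprotein genes there, AMBN alone had any count. The other 15 were at 0 in all 12 libraries, as were 17.7% of all protein-coding genes. The 15 included the caseins CSN1S1, CSN2 and CSN3, the salivary proteins STATH, HTN1, HTN3 and MUC7, and ODAM, which is secreted by maturing ameloblasts.

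**Figure D2:**
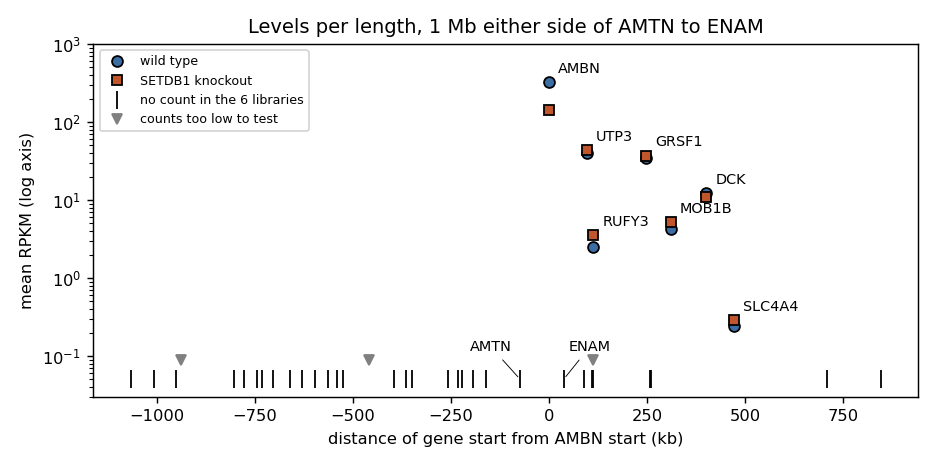
Mean RPKM of each gene in WT and KO non-directional libraries (log axis) against the distance in kb of its start from the AMBN start, with ticks at the bottom for genes with no count and triangles for genes too low to test, both placed off the scale of the axis. AMBN lies at 321 RPKM in WT and 144 RPKM in KO, AMTN and ENAM are at 0, and the next expressed gene, UTP3, lies at 39.7 RPKM in WT.

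The directional libraries, which had no part in choosing the genes, gave a further set of values for AMBN. Counts were 50, 56 and 48 in WT and 29, 21 and 24 in KO. This is 81.5, 82.8 and 90.2 CPM in WT and 46.3, 36.7 and 43.8 CPM in KO. Counts assigned to AMBN fell in the KO, from 84.8 ± 4.72 to 42.3 ± 4.95 CPM (SD, n = 3 each). The log2 fold change was −0.997 (SE 0.19, 95% interval −1.38 to −0.62, edgeR adjusted p = 3.99e-05). In this kit 16.2% of 4745 tested genes were called, 7.67% as higher and 8.54% as lower, and 1.83% had a log2 fold change as low as that of AMBN.

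Few reads of this kit fell in genes, so the retention of AMBN was compared with that of other genes. AMBN kept 0.861% of its non-directional level in WT and 0.957% in KO, both taken per listed read. Over 1570 genes with no other gene across their span and at least 50 CPM in WT, the median share was 0.510% in WT and the quartiles were 0.320% and 0.781%. AMBN was thus at or above 80.0% of these genes in WT and 84.9% in KO. The directional libraries held 10106592 to 12842195 listed reads each, of which 94.6% were assigned to no gene in each library. That share was at most 4.40% in the non-directional libraries. Counts assigned to AMBN were thus few per listed read, as were those of most genes. Whether the unassigned reads include reads of AMBN was not tested. The strand that the directional AMBN counts stand for is not known. They may be reads of the strand opposite to AMBN or a residue of its message, which was not tested.

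The neighbourhood of AMBN was compared next, to see whether other genes there differed between the genotypes. Within 1 Mb either side of the span from AMTN to ENAM lay 38 other annotated genes, of which 28 were at 0 in all 12 libraries. Of all 58735 genes of every type, 46.7% were at 0 in all 12 libraries. None of the 24 genes before AMTN passed the filter, and MUC7, the nearest, and OPRPN were at 0 in all 12 libraries. MUC7 is a salivary mucin and OPRPN the precursor of a salivary peptide. JCHAIN, which joins immunoglobulin polymers and overlaps ENAM, was also at 0. The 6 genes that were tested all lay beyond ENAM, starting with UTP3 at 1.66 kb from its end.

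Of these 6 genes 4 rose and 1 fell (edgeR, non-directional libraries), while 51.5% of all 13778 genes tested were called, 25.5% as higher and 25.9% as lower. Fitting all 12 libraries together shifted that balance to 2400 higher and 4170 lower calls, from 3517 and 3572. The median log2 fold change of the 6 genes was 0.19, beside −0.00 for all genes tested. All 6 changes were smaller in size than that of AMBN.

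RUFY3, an adaptor protein of neurons and of endosomes and lysosomes, had 224, 157 and 194 counts in WT and 278, 279 and 292 in KO. It rose by a log2 fold change of 0.49 (SE 0.081, adjusted p = 2.36e-07). An antisense gene with 5 counts, AC009570.1, overlaps its start, and this kit cannot tell the strands apart. MOB1B, a kinase activator of the Hippo pathway, rose by 0.29 (SE 0.065, adjusted p = 0.000123). The changes of UTP3, a ribosome biogenesis factor, and of GRSF1, an RNA-binding protein of mitochondria, were smaller, at 0.12 (SE 0.045, adjusted p = 0.0233) and 0.08 (SE 0.032, adjusted p = 0.0236). Each of these calls was lost in 5 of 11 alternative fits. DCK, the deoxycytidine kinase of nucleoside salvage, fell by 0.20 on the log2 scale (SE 0.066, adjusted p = 0.00961), and its call was lost in 2 of 11. DCK lies partly within MOB1B on the same strand, so reads in their overlap are uncertain. SLC4A4, a bicarbonate transporter, had a log2 fold change of 0.26 (SE 0.24) and did not pass the threshold (adjusted p = 0.388).

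Without WT replicate 1 the adjusted p was 0.0966 for UTP3 and 0.0711 for GRSF1, and without KO replicate 3 it was 0.137 and 0.131. GRSF1 also lost its call without WT replicate 2 (0.103), and DCK without WT replicate 3 (0.0663). Levels per length set AMBN apart from these neighbours more in WT than in KO, as it was 8.10-fold above UTP3 in WT and 3.32-fold above it in KO. That difference follows largely from the change on which AMBN was chosen, so it is a description.

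**Figure D3:**
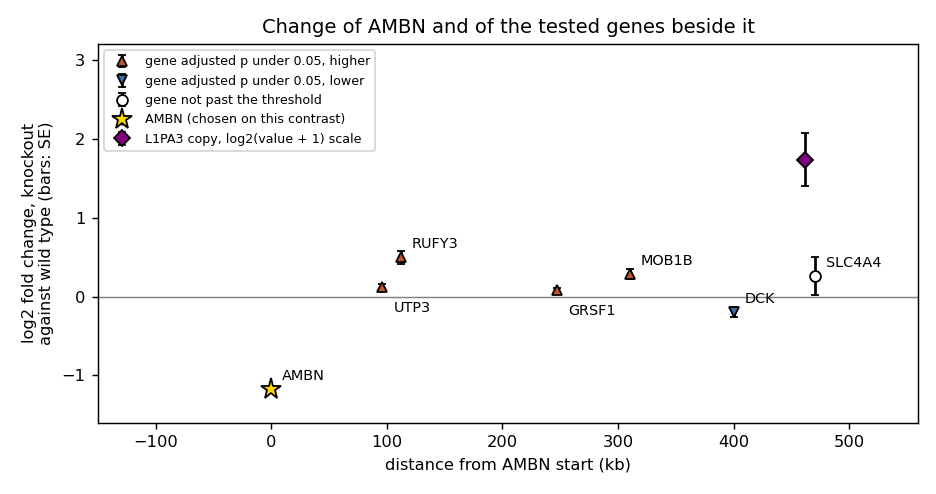
The log2 fold change of KO against WT for AMBN, for the 6 tested genes beside it and for an L1PA3 copy, against distance in kb from the AMBN start. Bars are ± SE; the L1PA3 value is on the log2(value + 1) scale. AMBN lies at −1.17, while the genes lie between −0.20 for DCK and 0.49 for RUFY3.

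On chromosome 4 as a whole the median log2 fold change over 516 tested genes was −0.01. Of these 124 were higher (24.0%) and 160 lower (31.0%), beside 25.5% and 25.9% of all genes tested. AMBN was 1 of 27 genes on the chromosome with a value of −1.17 or below, beside 471 of all 13778 genes tested.

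LINE-1 (L1) elements, the mobile repeats that the series was set up to study, were examined around AMBN as well. The authors' table of 6437 long L1 copies lists 9 in the same window, of which 6 had any read and 1 passed the filter. That copy, an L1PA3 at chr4:71053847-71059857, lies between DCK and SLC4A4, 462 kb past the AMBN start. It had 14, 10 and 5 reads in WT and 36, 56 and 38 in KO. Its deposited value rose from 10.8 ± 4.64 to 36.6 ± 9.85 (SD, n = 3 each). The log2 fold change was 1.73 on the log2(value + 1) scale (SE 0.33). WT replicate 3, with 5 reads, lay under the minimum count of 10, so the copy passed the filter only through its KO reads. Its change is therefore given without a test. Of 816 tested copies 28.4% were called, 19.1% as higher, and 34.7% were called by edgeR on the recovered reads. The other 8 copies held at most 6 reads each over the 6 libraries, and the nearest one upstream of AMBN, an L1PA7 within MUC7, held 0.

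Other genes of enamel and tooth formation were examined to set AMBN in its pathway. Of 31 such genes, 13 passed the filter, 1 was higher in the KO, 7 were lower and 5 did not pass the threshold, where 25.5% of all genes tested were higher and 25.9% lower. The median log2 fold change of the 13 was −0.22. LAMA3, 1 of the 7, passed the filter through its WT counts alone, so its values are given without a test, and the counts carry no test of the list.

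Most of the matrix proteins and their proteases were at or near 0, as AMTN and ENAM were. AMELX, the main enamel matrix protein, ODAM, and MMP20, the protease of the secretory stage, were at 0 in every library. KLK4, the protease of the maturation stage, had at most 1 count. The dentin and bone members of the family, DSPP, DMP1, IBSP and MEPE, were also at 0, and SPP1 had 1 count in 1 library. ODAPH, a matrix protein of maturing enamel, had at most 4 counts in a library. TUFT1, found in enamel and in many other tissues, fell by 0.22 on the log2 scale (SE 0.083, adjusted p = 0.0217), a call lost in 4 of 11 alternative fits (adjusted p = 0.152 without WT replicate 1, 0.0539 without WT replicate 2 and 0.106 without KO replicate 2). It lies on the long arm of chromosome 1, as does SETDB1, and over nearly all of that arm 457 of 575 tested genes were lower in the KO.

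Of 5 kinases, phosphatases and trafficking proteins 4 were tested, of which 3 fell and 1 rose. FAM20C, the Golgi kinase that phosphorylates secreted proteins including those of enamel, had 93, 88 and 61 counts in WT and 17, 22 and 12 in KO and fell by 2.31 on the log2 scale (SE 0.20, adjusted p = 5.34e-17). FAM20A, the pseudokinase that activates FAM20C, fell by 0.73 (SE 0.17, adjusted p = 0.000164). WDR72, which acts in vesicle traffic of maturing ameloblasts, had 123, 100 and 120 counts in WT and 16, 16 and 14 in KO and fell by 2.96 (SE 0.18, adjusted p = 1.55e-25). FAM83H, a keratin-associated protein mutated in dominant enamel disease, rose by 0.36 (SE 0.061, adjusted p = 4.77e-07). The genotypes did not overlap in FAM20C or WDR72. The share of all genes without overlap was not counted, and 25.9% of all genes tested were called lower.

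MSX2, a homeobox factor of the developing tooth, had a log2 fold change of −0.34 (SE 0.15, adjusted p = 0.0452), and its call was lost in 6 of 11 alternative fits. The adjusted p of MSX2 was 0.125 without WT replicate 1, 0.118 without WT replicate 3, 0.327 without KO replicate 2 and 0.183 without KO replicate 3. DLX3 (−0.05), MSX1 (−0.12) and RUNX2 (−0.04) did not pass the threshold. LAMA3, a chain of the laminin that anchors epithelium, had 18, 15 and 11 counts in WT and 4 in each KO library, a fitted log2 fold change of −1.91 (SE 0.41). STIM1, the calcium sensor of the endoplasmic reticulum, fell by 0.32 (SE 0.065, adjusted p = 2.58e-05), although its exons overlap other genes and its counts are uncertain. The calcium channel ORAI1 (0.05) and the receptor RELT (−0.12) did not pass the threshold.

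**Figure D4:**
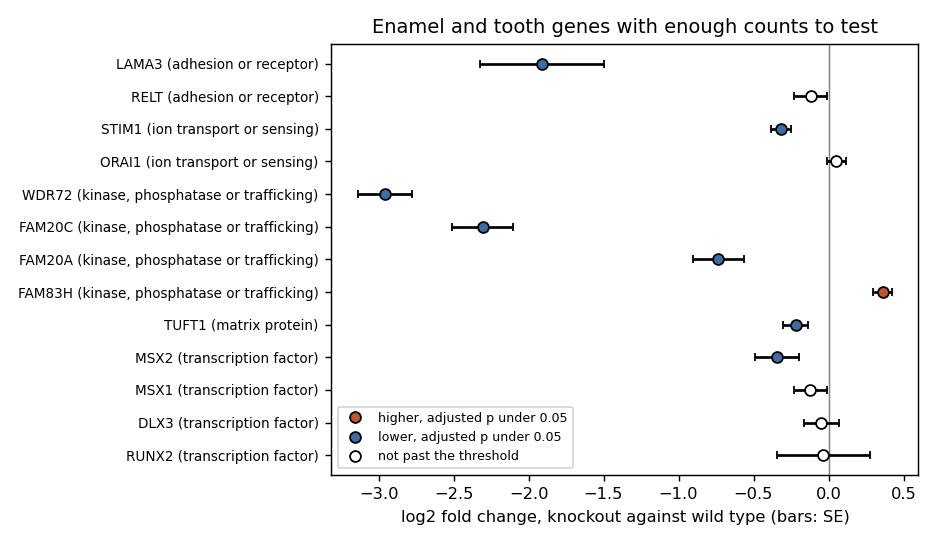
The log2 fold change of KO against WT for the 13 tested enamel and tooth genes in the non-directional libraries, grouped by role, with bars of ± SE and filled points for adjusted p under 0.05. WDR72, FAM20C and LAMA3 lie lowest, between −2.96 and −1.91, and FAM83H is the only one of the 13 called higher.

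Markers of cell types were checked because AMBN is known from tooth. Of 7 ameloblast markers, 6 were at or under 3 counts in every library, so AMBN was present without the others. Of 8 myeloid markers, which the leukemia origin would call for, 7 were at or under 3 counts and ITGAM reached 4, with CD33, MPO and LYZ at 0. Of 6 epithelial markers 3 were tested and 2 of these were higher in the KO. The summed level of the 6 was 141 to 155 CPM in WT and 205 to 217 CPM in KO, with KRT5 and KRT14 at 0. EPCAM had 29, 32 and 45 counts in WT and 399, 386 and 394 in KO and rose by a log2 fold change of 3.40 (SE 0.11, adjusted p = 1.25e-42), and KRT8 had a log2 fold change of 0.47 (adjusted p = 4.34e-15), beside 25.5% of all genes tested that were called higher. KRT8 shares exon sequence with a gene on the opposite strand, which this kit cannot separate, and its directional counts were 348, 239 and 165 in WT and 231, 191 and 217 in KO. KRT18 (−0.10) did not pass the threshold, and CDH1, which was not tested, had 8, 12 and 11 counts in WT and 3, 8 and 1 in KO. Of 6 bone and dentin markers only COL1A1 exceeded 3 counts in a library, and it did not pass the threshold (log2 fold change 0.16). The part of these markers in the change of AMBN was not tested.

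The 5 genes whose levels were most like those of AMBN, by Euclidean distance of log2(CPM + 1) over the 6 non-directional libraries, were FADS2 (distance 0.474), MSN (0.613), TOMM20 (0.697), UBAP2L (0.841) and STMN1 (0.869). FADS2 is a fatty acid desaturase, MSN the membrane linker moesin, TOMM20 a mitochondrial import receptor, UBAP2L a stress granule protein and STMN1 the tubulin-binding stathmin. Their log2 fold changes in that kit were −0.81, −0.67, −0.68, −0.49 and −0.47, all smaller in size than that of AMBN, and are given as a description because likeness to AMBN chose them. TOMM20 and UBAP2L lie on the long arm of chromosome 1, where the median log2 fold change of the 575 tested genes was −0.47. In the directional libraries FADS2 (log2 fold change −0.44, edgeR adjusted p = 0.00249) and MSN (−0.99, edgeR adjusted p = 0.00307) were lower as well. The others did not pass the threshold there, where 8.54% of all 4745 genes tested were called lower. The labels do not say whether both kits were run on the same RNA.

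**Figure D5:**
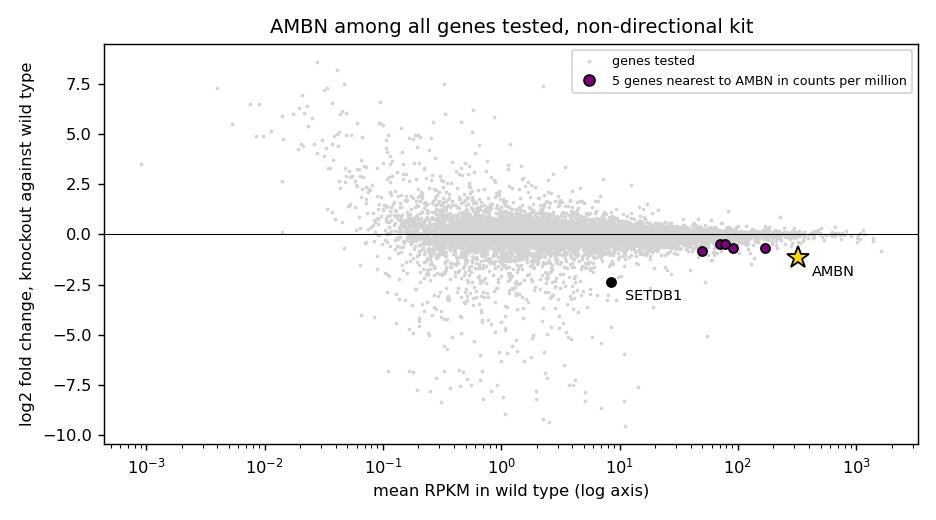
The log2 fold change of KO against WT and mean WT RPKM (log axis) of all genes tested in the non-directional libraries, with AMBN as a star, the 5 genes nearest to it in CPM and SETDB1. Genes at 0 in WT are not drawn. AMBN lies at 321 RPKM and −1.17, and 3.42% of all genes tested lie as low.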

How the data were processed

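RNA-seq libraries of WT and SETDB1 KO HAP1 cells were grouped by their titles. The publication in the header concerns another experiment, so none of its methods were used. The authors deposited raw counts per gene for each library. Per the submitters' processing notes, the tools included Trim Galore 0.4.4, STAR 2.6.0a and HTSeq 0.11.1 with hg38; the strand setting is not given in the sources used here. A signal per L1 copy was deposited by the authors for the non-directional kit. All non-zero signal values were whole multiples of 1 read (100%, within 0.01), and positions are given as deposited. All 58735 gene IDs matched GENCODE 29.

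Each kit was fitted alone with the quasi-likelihood test of edgeR 4.0.16 (R 4.3.3), after filterByExpr (minimum count 10, minimum total 15) and TMM scaling, with Benjamini-Hochberg adjustment at 0.05. The SE is approximate, the size of the log2 fold change over the root of its F value. L1 values were tested with limma 3.58.1 on log2(value + 1), which called 232 of 816 copies. The count test on the recovered reads called 283. DESeq2 1.42.0 and other settings were alternatives. The edgeR and limma fits were tested on simulated data. CPM and RPKM used gene counts only. Reads in no gene or not unique were left out.

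The members, lists and tests were chosen with earlier results of these data known. Named genes were the 3 members, SETDB1, the nearest and the called genes of the window, AMELX, MMP20, KLK4, ODAM and the called genes of the enamel list, and the 5 genes nearest to AMBN; others named were chosen after their values were seen. 1 gene of the enamel list is not reported here. Same-numbered replicates did not deviate together (correlations −0.026 to 0.014), so the numbers were not taken as pairs.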

Additional observations from a re-analysis of the deposited data

How the results depend on the processing

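AMBN kept its direction under every alternative run. Its non-directional log2 fold change was −1.18 to −1.16 when each library was left out and −1.23 in a single fit of all 12 libraries. In the directional libraries it was −1.08 to −0.91 with a library left out, and the adjusted p over all 11 alternatives was 4.24e-05 to 0.00751, the highest from the DESeq2 Wald test. The count of called window genes was 5, and it was 2 with the DESeq2 Wald test, 3 in the 12-library fit, 8 of 13 tested in a window of 3 Mb, and 3 to 5 with a library left out. Directional calls over all genes went from 769 to 330 with the DESeq2 Wald test and to 598 to 688 with a library left out. Non-directional calls were 6394 to 7134 and enamel list calls 7 to 9 with a library left out. With the DESeq2 Wald test they went from 7089 to 5359 and from 8 to 6. The L1PA3 copy, which passed the filter only through its KO reads, was higher in the KO in every alternative and is given without a test. With the replicate number as a block, AMBN was at −1.17 and, in the directional libraries, −1.002 (edgeR adjusted p = 0.000168), with 7074 and 712 genes called; the block ended no call of the called window genes, the called enamel list genes or SETDB1. The 77 alternatives for the summary values included 11 of the non-directional AMBN change, on which AMBN was chosen, and 10 of the L1PA3 copy. Those describe the fits only. Of all 77 alternatives 70 kept the values, 7 moved them and 0 reversed them. The cause of these shifts was not tested. The low share of reads that fell in genes limits the directional values, and depth limits any level of AMTN and ENAM below 3 counts.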

Other observations

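Several enamel genes had counts too low to be tested. COL17A1, a collagen of the hemidesmosome that anchors ameloblasts, had 10, 13 and 12 counts in WT and 4, 2 and 3 in KO. SP6, a transcription factor of the dental epithelium, had 1, 4 and 0 counts in WT and 1, 5 and 5 in KO. SLC24A4, an ion exchanger of maturing ameloblasts, had 0 counts in each WT library and 1, 2 and 1 in KO.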
